A study of Homo sapiens with 12 samples.

Results

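A set of 10 genes of fibroblast inflammatory signalling was followed: the NF-kB subunit genes RELA and NFKB1, the NF-kB inhibitor genes NFKBIA and TNFAIP3, the interleukin-1 receptor gene IL1R1, the C/EBP transcription factor genes CEBPB and CEBPD, and the genes CCL2, ICAM1 and CXCL12, which encode 2 chemokines and an adhesion molecule. They were taken by gene symbol, as 10 of the 25702 genes of the count table, and 9 of them passed the filter on low counts, CXCL12 being the exception. RNA was from WI-38 cells, a line of normal human lung fibroblasts, in 4 conditions of 3 flasks each. D1 and D20 cells were grown without TGF-β for 1 day and 20 days, and D1+ TGF-β and D20+ TGF-β cells were grown with 2 ng/mL of it for the same times. The flasks were confluent when treatment began, each set of D20 flasks had been seeded from 1 treated or 1 untreated flask, and media with or without TGF-β were changed every 2 days. Passages were 2 to 3 at D1 and 5 to 6 at D20, so that time, passage and replating cannot be told apart. The 3 flasks of a condition at D20 therefore descend from 1 flask, and p-values measure only the spread between these flasks.

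NF-kB is held in the cytoplasm by IκB proteins until ligands such as interleukin-1 or TNF set off a kinase cascade that destroys the inhibitor. RELA and the p50 product of NFKB1 then enter the nucleus and bind κB sites. Among the genes they switch on are those of their own inhibitors, which closes a feedback loop, and those of chemokines and adhesion molecules through which fibroblasts call in leukocytes. C/EBPβ and C/EBPδ act beside NF-kB on many of the same genes, and TGF-β is known both to dampen and to raise inflammatory genes of fibroblasts, depending on the setting.

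The promoters of NFKBIA, TNFAIP3, ICAM1 and NFKB1 are shown first because each held a κB-like stretch and because the levels of these genes differed between flasks. RefSeq promoter windows (GRCh38.p14 table, 250 bases before and 50 after each start site) were at hand for 8 of the 10 members, 14 windows in all, and not for CCL2 or CEBPD. Each was found at 1 exact position in GRCh37, the build of the counts. The 10-base NF-kB consensus, searched on both strands, was in windows of 4 of the 8 members (CEBPB, NFKB1, NFKBIA and TNFAIP3) and in 4 of their 14 windows, against 11.3% of all 35116 windows. The 9-base form GGAANTTCC, which overlaps the consensus in NFKB1 and NFKBIA, was in windows of 3 of the 8 (ICAM1, NFKB1 and NFKBIA) and in 3 of the 14 windows, against 0.965% of all windows. The matches began 81 bases before the start of NFKBIA, 67 and 55 bases before that of TNFAIP3, 186 bases before that of ICAM1 and 49 bases before that of NFKB1. The match of CEBPB was a run of G and C, and the windows of IL1R1, RELA and CXCL12 held neither form. A match is a description of letters and was not tested as a binding site. The 250 bases before the start are printed 5′ to 3′ on the strand of the gene, with both forms in capitals, from GRCh37 chr14:35873956-35874205 (minus strand), chr6:138188146-138188395 (plus), chr19:10381546-10381795 (plus) and chr4:103422266-103422515 (plus).
NFKBIA: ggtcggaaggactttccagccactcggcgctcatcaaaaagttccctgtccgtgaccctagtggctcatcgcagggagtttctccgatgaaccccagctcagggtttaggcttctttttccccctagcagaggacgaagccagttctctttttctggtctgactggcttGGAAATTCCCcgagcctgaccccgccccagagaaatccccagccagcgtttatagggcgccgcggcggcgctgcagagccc
TNFAIP3: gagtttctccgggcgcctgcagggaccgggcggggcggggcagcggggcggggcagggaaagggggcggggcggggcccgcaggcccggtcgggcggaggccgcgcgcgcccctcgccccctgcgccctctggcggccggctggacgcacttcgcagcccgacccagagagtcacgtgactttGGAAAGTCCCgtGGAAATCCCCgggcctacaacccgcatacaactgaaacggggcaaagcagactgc
ICAM1: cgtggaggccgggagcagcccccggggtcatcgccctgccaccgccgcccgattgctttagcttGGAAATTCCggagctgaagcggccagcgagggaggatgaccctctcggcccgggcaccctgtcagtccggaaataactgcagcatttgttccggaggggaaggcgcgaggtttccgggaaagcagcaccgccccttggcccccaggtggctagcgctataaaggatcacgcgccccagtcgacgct
NFKB1: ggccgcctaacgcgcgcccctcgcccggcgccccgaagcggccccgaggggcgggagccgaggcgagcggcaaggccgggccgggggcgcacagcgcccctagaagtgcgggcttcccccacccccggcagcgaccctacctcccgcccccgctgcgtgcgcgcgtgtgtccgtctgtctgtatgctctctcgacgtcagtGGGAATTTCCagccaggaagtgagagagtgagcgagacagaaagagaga

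TGF-β for 1 day lowered IL1R1 and CEBPD, and after 20 days of culture 8 of the 9 members tested stood higher with TGF-β at D20 than with TGF-β at D1. In D20+ TGF-β vs D20, CEBPB and TNFAIP3 rose and IL1R1 fell, and CXCL12, tested under a wider filter, fell. In D20 vs D1, IL1R1, CEBPD and ICAM1 rose, as did CXCL12. RELA was called in none of the 5 comparisons. Differences were tested on the summed counts by edgeR's quasi-likelihood test in 1 fit of all 12 libraries. Calls were made where the adjusted p was below 0.01. Levels are given as cpm, counts per 1000000 counts of the library scaled by TMM factors, and as mean ± SD of 3 flasks.

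After 1 day of TGF-β, 2 of the 9 members tested were called, both lower, where 13.4% of all 9490 genes tested were called, 6.89% higher and 6.5% lower. In D20+ TGF-β vs D20, 2 members were called higher and 1 lower, against 27.5% of all genes (12.8% higher and 14.7% lower). With TGF-β at both times, D20 against D1, 8 members were called, all higher, against 34.8% of all genes (17.2% higher and 17.7% lower). Without TGF-β, 3 members were called from D1 to D20, all higher, against 36.4% of all genes (18.9% higher and 17.6% lower). The shares of members called were near the background in D20+ TGF-β vs D20 and in D20 vs D1. The difference of the TGF-β responses, the log2 fold change at D20 minus that at D1, was called for 0 of 9 members by edgeR, against 10.4% of all genes (4.51% higher and 5.87% lower). At an unadjusted p under 0.05 there were 4 of 9, DESeq2 called 1 and limma-voom called 0. The share of all genes at that unadjusted threshold was not counted, so the 4 of 9 cannot be set against it.

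**Figure D1:**
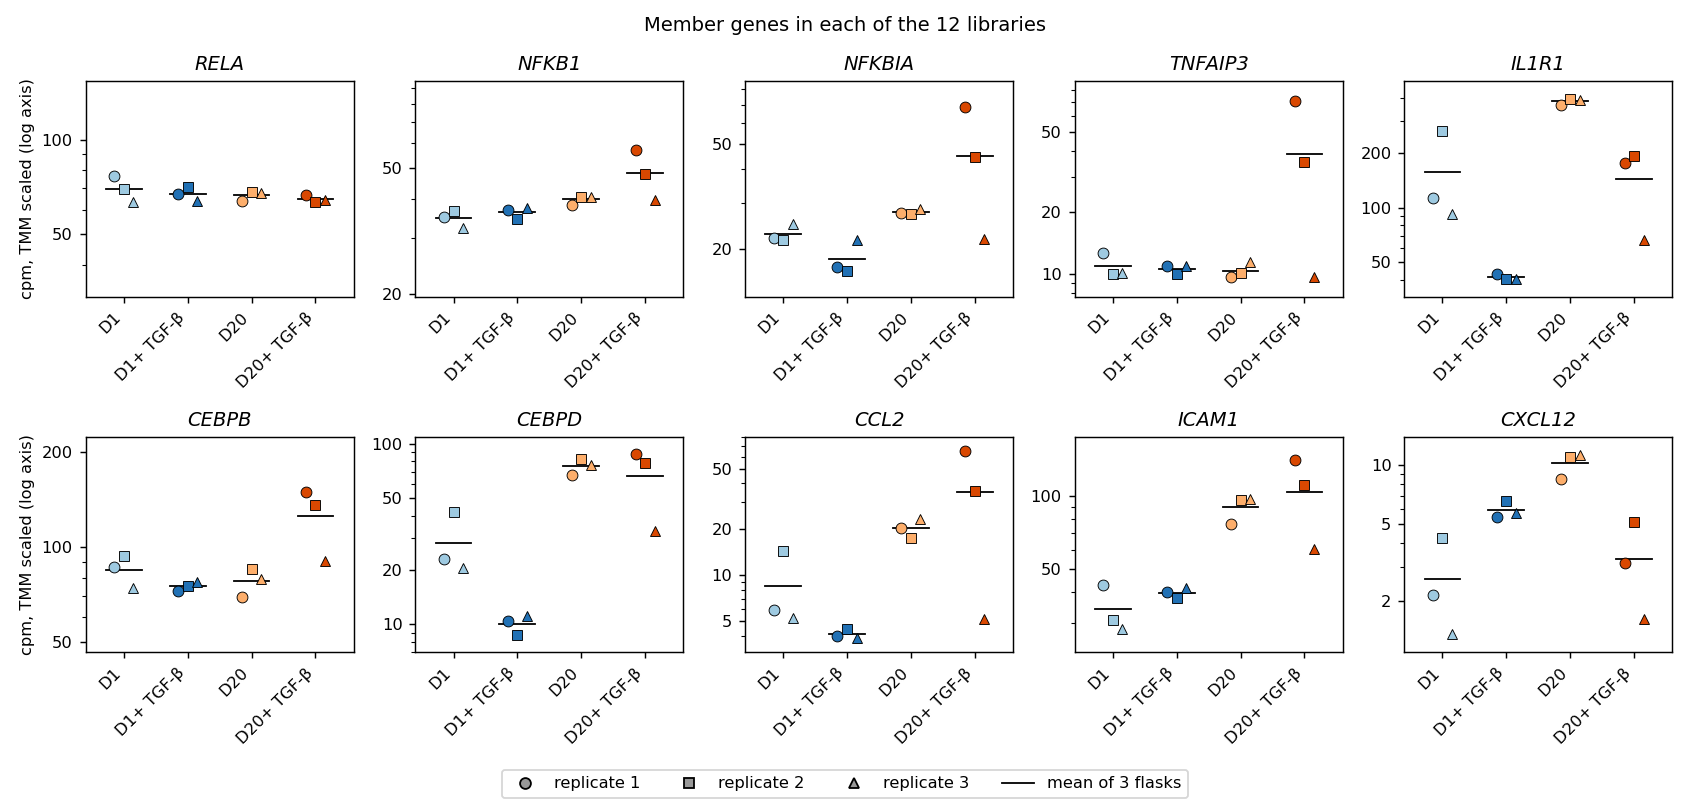
Each panel plots the cpm of 1 member (log axis) in the 12 libraries, by condition, with a marker for each replicate number and a line at the mean of 3 flasks. In D20+ TGF-β, replicate 3 lies below replicates 1 and 2 in 8 of the 9 members tested, against 3730 of all 9490 genes tested. TNFAIP3 with 71.0, 35.3 and 9.66 cpm is an example, and RELA stays between 63.2 and 76.9 cpm throughout.

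RELA, which encodes the transactivating p65 subunit, was the steadiest member. Its levels were 76.9, 69.6 and 63.2 cpm at D1, 67.1, 70.9 and 64.0 at D1+ TGF-β, 63.7, 68.3 and 67.7 at D20, and 66.8, 63.3 and 64.2 at D20+ TGF-β. The flasks of all conditions overlapped, and the log2 fold changes of the 4 pairwise comparisons lay between −0.07 and −0.04, with 95% intervals inside −0.23 and 0.13. NFKB1, which encodes the precursor of p50, stood at 35.1, 36.7 and 32.3 cpm at D1, 36.8, 34.5 and 37.4 at D1+ TGF-β, 38.3, 40.4 and 40.6 at D20, and 57.2, 48 and 39.7 at D20+ TGF-β. Every D20+ TGF-β flask was above every D1+ TGF-β flask, and the log2 fold change between them was 0.42 ± 0.11 (SE, edgeR adjusted p = 0.00619). Left without any 1 D1+ TGF-β flask, D20 replicate 2 or D20+ TGF-β replicate 1 or 2, it was 0.28 to 0.45 and not called (adjusted p 0.0101 to 0.0353), nor was it under the wider filter (0.38, adjusted p = 0.0106) or with only the compared libraries (adjusted p = 0.0186). Against D20 the D20+ TGF-β flasks overlapped, at a log2 fold change of 0.29 ± 0.11 (adjusted p = 0.05, not called). Reads of RELA and NFKB1 may include those of RELA-DT and AF213884.3, annotated on the opposite strands, since the use of strand in counting is not given in the sources used here.

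NFKBIA encodes IκBα, the inhibitor that NF-kB itself induces. It was measured at 22.0, 21.7 and 24.9 cpm at D1, 17.1, 16.6 and 21.7 at D1+ TGF-β, and 27.4, 27.2 and 28.3 at D20. The D20+ TGF-β flasks gave 68.8, 44.5 and 21.9 cpm, so that replicates 1 and 2 were the 2 highest of the 12 libraries while replicate 3 lay below all D20 flasks. NFKBIA was higher in D20+ TGF-β than in D1+ TGF-β by 1.32 ± 0.29 on the log2 scale (SE, edgeR adjusted p = 0.00186). Leaving out D20+ TGF-β replicate 1 made this 0.86 (adjusted p = 0.00823), and leaving out D1+ TGF-β replicate 2 ended the call (1.23, adjusted p = 0.0134), as did fitting only the compared libraries (adjusted p = 0.0129). Against D20 the difference was 0.72 ± 0.27 (adjusted p = 0.0463, not called), and 1.05 without D20+ TGF-β replicate 3 (adjusted p = 0.000112).

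TNFAIP3, the gene of the ubiquitin-editing enzyme A20 that shuts the pathway off, showed the same split more sharply. Its 9 libraries outside D20+ TGF-β lay between 9.60 and 12.6 cpm, and the D20+ TGF-β flasks were at 71.0, 35.3 and 9.66 cpm. The log2 fold change was 1.93 ± 0.46 against D20 (SE, edgeR adjusted p = 0.00423) and 1.91 ± 0.47 against D1+ TGF-β (adjusted p = 0.00404). Both were called, yet replicate 3 lay within the D20 flasks and below all D1+ TGF-β flasks (10.9, 9.92 and 10.9 cpm). Without D20+ TGF-β replicate 1 the log2 fold change was 1.11 against D20 and 1.10 against D1+ TGF-β, and neither was called (adjusted p = 0.0279 and 0.0278). The calls also ended without any 1 flask of D20 (1.89 to 2.00) or of D1+ TGF-β (1.86 to 1.94), at adjusted p of 0.0147 to 0.0222. Neither was called by limma-voom (1.57 in both, adjusted p = 0.0378 and 0.0369), by limma on the deposited values (1.52 and 1.49) or with only the compared libraries (adjusted p = 0.0248 and 0.022). TNFAIP3 passed the filter with 8 of 12 libraries at 10 cpm or more, and WAKMAR2 is annotated on its opposite strand.

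IL1R1 encodes the receptor through which interleukin-1α and β activate NF-kB, and it fell with TGF-β at both times. The D1 flasks gave 114, 264 and 92.3 cpm and the D1+ TGF-β flasks 43.1, 40.3 and 40.6 cpm, without overlap, at a log2 fold change of −1.93 ± 0.39 (SE, edgeR adjusted p = 0.00273). D1 replicate 2 was far above the other D1 flasks, and without it the log2 fold change was −1.31 (adjusted p = 0.00479). Leaving out any 1 D1+ TGF-β flask ended this call, at −1.96 to −1.91 and adjusted p of 0.0132 to 0.0183. The D20 flasks were close together at 369, 398 and 391 cpm, the highest of all conditions. In D20+ TGF-β the levels were 175, 192 and 66.5 cpm, all below D20, at a log2 fold change of −1.42 ± 0.36 (adjusted p = 0.00696). It was not called without any 1 flask of D20 or of D1+ TGF-β, nor without D20+ TGF-β replicate 1 or 3, at −1.57 to −1.08 and adjusted p of 0.0111 to 0.0214. The D20+ TGF-β flasks were above the D1+ TGF-β flasks without overlap, by 1.81 ± 0.39 (adjusted p = 0.00171, and 0.01 without D1+ TGF-β replicate 2). Untreated cells gained IL1R1 between D1 and D20 by 1.30 ± 0.36 (adjusted p = 0.00898). The call was lost when any 1 of 9 flasks was left out, those other than D1 replicate 2 and D20+ TGF-β replicates 2 and 3, at 1.03 to 1.33 and adjusted p of 0.0103 to 0.0441, and DESeq2 gave an adjusted p of 0.0105. The responses at D20 and D1 differed by 0.51 with a 95% interval of −0.61 to 1.63, so an equal and a smaller fall at D20 could not be told apart. IL1R1-AS1 is annotated on the opposite strand.

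CEBPD, which encodes an early transcription factor of the acute-phase response, fell with TGF-β at D1 and rose with time in both the treated and the untreated cells. The flasks gave 22.9, 41.7 and 20.5 cpm at D1 and 10.4, 8.73 and 11.1 cpm at D1+ TGF-β, without overlap, a log2 fold change of −1.53 ± 0.35 (SE, edgeR adjusted p = 0.00674). Without D1 replicate 2 it was −1.13 and not called (adjusted p = 0.0237), nor was it without D1 replicate 1, any 1 D1+ TGF-β flask or any 1 D20 flask, at −1.67 to −1.41 and adjusted p of 0.0103 to 0.0454. By limma-voom the adjusted p was 0.0218. The D20 flasks stood at 66.9, 81.8 and 76.3 cpm and the D20+ TGF-β flasks at 87.5, 77.7 and 32.9 cpm, overlapping (log2 fold change −0.18 ± 0.29, adjusted p = 0.655). D20+ TGF-β exceeded D1+ TGF-β by 2.74 ± 0.35 on the log2 scale (adjusted p = 3.6e-05), and D20 exceeded D1 by 1.39 ± 0.30 (adjusted p = 0.00183). The latter call ended without D1 replicate 1 (1.26) or 3 (1.20). The difference of the responses was 1.35 ± 0.46 (adjusted p = 0.0504, not called).

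CEBPB encodes C/EBPβ, a partner of NF-kB at cytokine genes. It lay between 69.3 and 93.5 cpm in the 9 libraries of D1, D1+ TGF-β and D20 and at 150, 137 and 90.2 cpm in D20+ TGF-β. All D20+ TGF-β flasks were above all D20 flasks, by 0.69 ± 0.15 on the log2 scale (SE, edgeR adjusted p = 0.00238), and above all D1+ TGF-β flasks, by 0.75 ± 0.15 (adjusted p = 0.00118). The call against D20 ended without D20 replicate 1 (0.62) or D20+ TGF-β replicate 1 (0.55) or 2 (0.63), at adjusted p of 0.011 to 0.0131, and with only the compared libraries (adjusted p = 0.0109). At D1 the log2 fold change with TGF-β was −0.18 ± 0.15 (adjusted p = 0.427). The difference of the 2 responses, 0.87 ± 0.21, had the smallest p of the 9 members (adjusted p = 0.0113) and missed the threshold, but DESeq2 called it (0.87, adjusted p = 0.00085), as did the fit without D20+ TGF-β replicate 3 (1.05). CEBPB-AS1 lies on the opposite strand.

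CCL2 encodes the monocyte chemoattractant MCP-1. The levels were 5.93, 14.4 and 5.28 cpm at D1, 4.02, 4.48 and 3.91 at D1+ TGF-β, 20.6, 17.5 and 23.3 at D20, and 64.8, 35.8 and 5.16 at D20+ TGF-β. Replicate 3 of D20+ TGF-β was thus at the level of D1 cells, and its flask mates were above every other library. CCL2 was higher in D20+ TGF-β than in D1+ TGF-β by 3.10 ± 0.67 (SE, edgeR adjusted p = 0.00175), and the flasks did not overlap. The call was lost without D20+ TGF-β replicate 1 (2.28, adjusted p = 0.011) or D1+ TGF-β replicate 2 (3.18, adjusted p = 0.0113), and by limma-voom (2.59, adjusted p = 0.0243). Against D20 the log2 fold change was 0.82 ± 0.54 (adjusted p = 0.243), and it was −0.0047 when replicate 1 was left out and 1.31 when replicate 3 was (adjusted p = 0.00271). From D1 to D20 it was 1.22 ± 0.60 (adjusted p = 0.104), with no overlap of flasks. The D1+ TGF-β flasks were below the D1 flasks, at −1.06 ± 0.74 (adjusted p = 0.317). CCL2 passed the filter with exactly 6 libraries at 10 cpm or more, 5 of them at D20 with or without TGF-β.

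ICAM1 encodes the adhesion molecule that binds leukocyte integrins. Its cpm were 43.0, 30.8 and 28.3 at D1, 40.2, 37.7 and 41.5 at D1+ TGF-β, 76.3, 95.9 and 97.3 at D20, and 140, 110 and 60.3 at D20+ TGF-β. Levels rose with time and did not overlap between D1 and D20. The log2 fold change was 1.41 ± 0.24 without TGF-β (SE, edgeR adjusted p = 0.000275) and 1.39 ± 0.24 with it (adjusted p = 0.000348). With TGF-β the log2 fold change was 0.23 ± 0.25 at D1 (adjusted p = 0.543) and 0.21 ± 0.23 at D20 (adjusted p = 0.487), and the difference of these responses was −0.02 with a 95% interval of −0.73 to 0.70. LIMASI and ICAM4-AS1 are annotated on the opposite strand.

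CXCL12 encodes a chemokine of stromal cells that retains leukocytes and stem cells in tissue. Its level was low, at 16 to 184 counts per library. The flasks gave 2.15, 4.25 and 1.36 cpm at D1, 5.44, 6.52 and 5.69 at D1+ TGF-β, 8.54, 11 and 11.3 at D20, and 3.14, 5.14 and 1.63 at D20+ TGF-β. TGF-β flasks were above untreated ones at D1 and below them at D20, without overlap at either time. Because CXCL12 reached 10 cpm in 2 libraries, it was tested in the fit with edgeR's filterByExpr, which kept 13768 genes. The log2 fold change was 1.16 ± 0.35 at D1 (SE, edgeR adjusted p = 0.0306, not called, but 1.77 with adjusted p = 0.00191 without D1 replicate 2) and −1.66 ± 0.32 at D20 (adjusted p = 0.000978, where 11.3% of genes were called higher and 13.1% lower). The 2 responses differed by −2.82 ± 0.48 (adjusted p = 0.0012), where 8.04% of the genes of this fit were called. In untreated cells CXCL12 rose from D1 to D20 by 1.91 ± 0.33 (adjusted p = 0.000285).

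**Figure D2:**
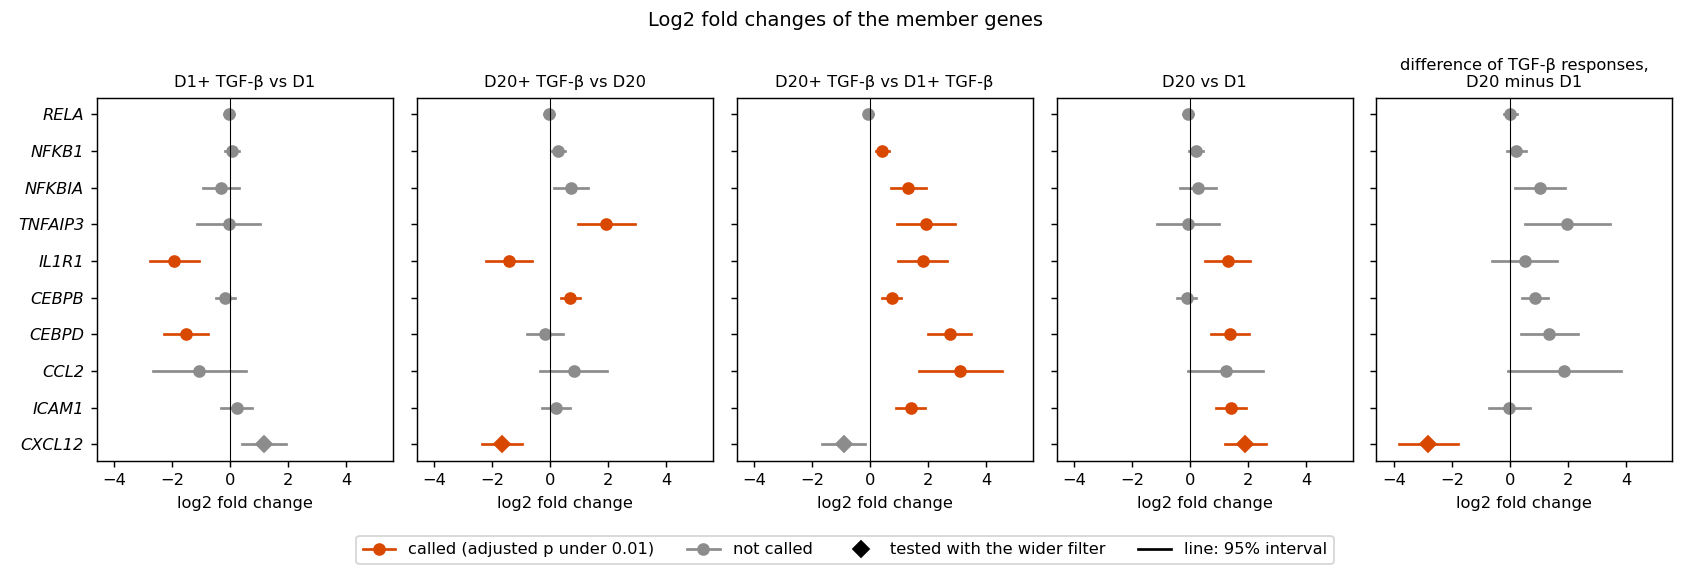
Each panel plots the log2 fold change (x axis) of the 10 members (y axis) in 1 comparison, with lines for 95% intervals, orange for changes called at an adjusted p under 0.01 and diamonds for CXCL12, tested with the wider filter. D20+ TGF-β against D1+ TGF-β holds 8 called increases, and CXCL12 is the member called in the difference of the responses, at −2.82.

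The 3 flasks of D20+ TGF-β differed from each other in these genes more than the flasks of any other condition did, by the median over the members and not for RELA. In D20+ TGF-β, the median SD of log2 cpm was 0.77 over the 9 members tested and 0.099 over all 9490 genes. At D1 these medians were 0.19 and 0.16, at D1+ TGF-β 0.074 and 0.074, and at D20 0.12 and 0.068. The SD of CCL2 in D20+ TGF-β, 1.89, was larger than that of 99.98% of genes, and that of TNFAIP3, 1.45, larger than that of 99.96%. IL1R1, NFKBIA, CEBPD and ICAM1 followed with SDs of 0.84, 0.83, 0.77 and 0.63, above those of 99.7, 99.6, 99.5 and 99.0% of genes. RELA had an SD of 0.040, larger than that of 12.8%. Some members spread widely at D1 too. There IL1R1, CCL2 and CEBPD had SDs of 0.80, 0.78 and 0.55, above those of 99.6, 99.6 and 98.5% of genes. ICAM1 at D1 had 0.32 (91.4%), and TNFAIP3, CEBPB, RELA, NFKBIA and NFKB1 lay above 20.9 to 63.6% of genes. Replicate 1 was the highest and replicate 3 the lowest in 7 of the 9 members, against 18.8% of all genes tested. The order was read from the values and is given as a description, with no test.

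**Figure D3:**
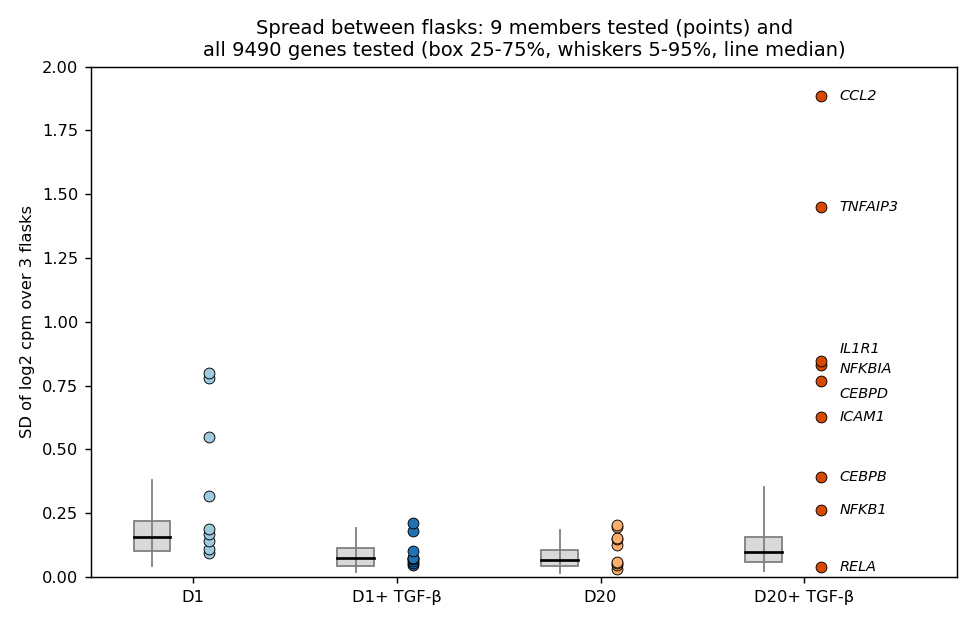
The SD of log2 cpm over the 3 flasks (y axis) is plotted for each condition (x axis), with points for the 9 members tested and grey boxes for all 9490 genes. In D20+ TGF-β the members spread up to 1.89 (CCL2) with RELA at 0.040, and at D20 the members' median is 0.12.

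The lanes of a flask differed less than the flasks did for NFKBIA and CCL2. NFKBIA ranged over the 4 lanes from 65.2 to 69.5 cpm in D20+ TGF-β replicate 1, from 42.6 to 45.6 in replicate 2 and from 19.9 to 23.2 in replicate 3. CCL2 ranged from 62.4 to 65.2, from 31.9 to 37.6 and from 4.38 to 6.02 cpm. TNFAIP3 varied more between lanes, from 66.2 to 75.7, from 28.1 to 45.2 and from 7.52 to 11.6 cpm, without overlap between the flasks. CXCL12, with few counts, ranged from 2.24 to 3.70, from 4.70 to 5.79 and from 0.376 to 2.32 cpm, and its lanes overlapped between replicates 1 and 3. The 3 flasks had 17651781, 9899382 and 10480674 counts in all, replicate 1 having the most. The part of depth in the spread of the members was not tested. Other lists moved with the flasks too. The summed level of 6 proliferation markers was 270, 248 and 417 cpm in replicates 1, 2 and 3, that of 3 myofibroblast markers, ACTA2 among them, 1417, 1430 and 1652 cpm, and that of 10 fibroblast markers, mostly VIM, COL1A1 and COL1A2, 22160, 23971 and 22303 cpm. Of these 10, 7 were lowest in replicate 3, against 3730 of all 9490 genes tested. COL3A1, with 1354, 1498 and 728 cpm, and LUM, the gene of lumican, with 359, 365 and 179 cpm, were among the 7. VIM, with 5850, 5852 and 7874 cpm, and S100A4 were highest in replicate 3, and THY1 was lowest in replicate 1. The part of these lists in the spread of the members was not tested. In RNA of whole flasks, fewer cells of a kind and less RNA per cell cannot be told apart.

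Leaving out 1 flask showed how far the calls depended on it. Of the 9 members that passed the filter, the 5 called without D20+ TGF-β replicate 3 in D20+ TGF-β vs D20 were CCL2 (1.31), CEBPB (0.88), NFKBIA (1.05), TNFAIP3 (2.37) and NFKB1 (0.41), all higher on the log2 scale, and without replicate 1 there were 0. Likewise, the difference of the responses was called for 5 of these 9 without replicate 3, CCL2 (2.38), CEBPB (1.05), CEBPD (1.67), NFKBIA (1.37) and TNFAIP3 (2.42), and for 0 without replicate 1. The share of all genes called in these fits was not counted, so the shift is not shown to be particular to the members. All conditions share 1 estimate of the spread. Without replicate 3, CCL2 was also called in D20 vs D1 (1.22, edgeR adjusted p = 0.00417), which does not hold this flask. CXCL12, in the fit with the wider filter, was called in both comparisons whichever of these flasks was left out. Its log2 fold change in D20+ TGF-β vs D20 was −1.39 without replicate 3 (adjusted p = 0.0019) and −1.61 without replicate 1 (adjusted p = 0.00673), and the difference of its responses was −2.54 (adjusted p = 0.000643) and −2.76 (adjusted p = 0.00444).

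Genes that NF-kB is known to induce showed the same split. In a list of 35 such cytokine, chemokine, adhesion and survival genes, 11 passed the filter, CCL2 and ICAM1 among them, and 9 of the 11 were highest in replicate 1 and lowest in replicate 3 of D20+ TGF-β, or 7 of 9 without these members, against 18.8% of all genes. Under the wider filter it was 20 of 24 genes, against 19.4% of all 13768. Of these 24, 13 were kept by the wider filter only, and 11 of the 13 had this order. Genes low elsewhere could pass by their high D20+ TGF-β flasks, so the filter bears on this order too. SOD2, the mitochondrial superoxide dismutase, stood at 1451, 943 and 268 cpm in replicates 1, 2 and 3, and NAMPT, an enzyme of NAD synthesis, at 425, 333 and 89.5 cpm. At D20 the SOD2 flasks were at 347, 416 and 407 cpm and the NAMPT flasks at 103, 118 and 114. Chemokines that attract neutrophils spread widely. CXCL8 (interleukin-8) had 198, 71.0 and 3.92 cpm in the D20+ TGF-β flasks and at most 7.84 cpm in the other 9 libraries. CXCL1 had 96.3, 33.6 and 1.63 cpm, with at most 3.49 elsewhere, and CXCL5 39.6, 21.0 and 1.43 cpm, with at most 3.45 elsewhere. IL6, the gene of interleukin-6, had 39.3, 15.7 and 4.11 cpm, with at most 8.81 elsewhere. The interleukin-1 genes themselves followed, IL1A with 17.9, 9.76 and 1.34 cpm and IL1B with 17.4, 8.12 and 0.669 cpm. Replicates 1 and 2 were above all other libraries in each of these 6 genes. Replicate 3 lay within the range of the other 9 libraries in 5 of them, and for IL1A it was above it (0.930 cpm at most elsewhere).

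**Figure D4:**
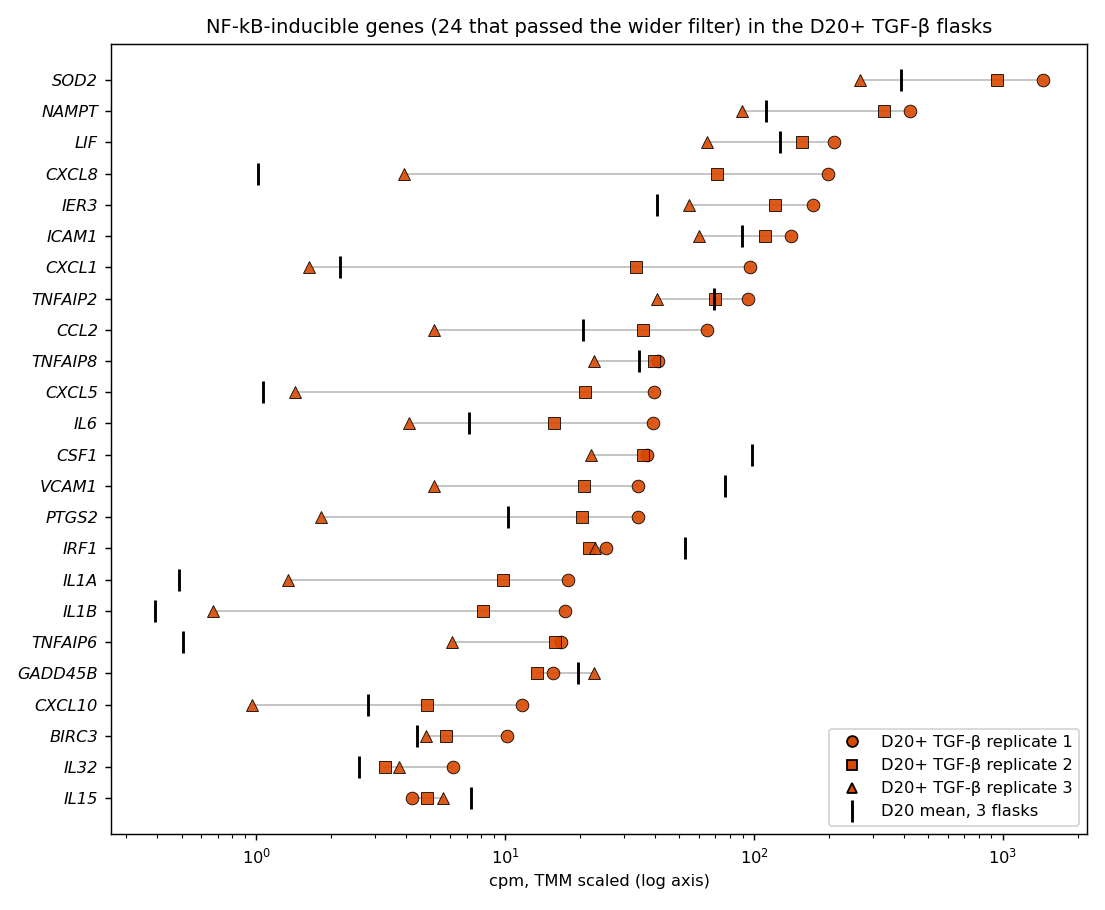
The cpm (log axis) of the 24 NF-kB-inducible genes that passed the wider filter are plotted for the 3 D20+ TGF-β flasks, with a black bar at the D20 mean of 3 flasks. Replicate 1 is highest and replicate 3 lowest in 20 of the 24 genes, and CXCL8 spans 3.92 to 198 cpm. Genes low elsewhere could pass this filter by their high D20+ TGF-β flasks, which bears on this order.

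By the tests, 2 of the 11 inducible genes were higher and 2 lower in D20+ TGF-β vs D20, against 12.8% and 14.7% of all genes, a share near the background. NAMPT (1.34 ± 0.37) and IER3, an immediate early survival gene (1.52 ± 0.30), rose, and CSF1, the macrophage growth factor (−1.63 ± 0.20), and IRF1, an interferon-response transcription factor (−1.17 ± 0.14), fell on the log2 scale (SE). Of the 13 that only the wider filter kept, 6 were higher and 1 was lower, against 11.3% and 13.1% of all genes of that fit. Genes low elsewhere, such as IL1A with at most 0.93 cpm outside D20+ TGF-β, could pass by their D20+ TGF-β flasks. The filter thus bears on this count. CXCL8 (6.47 ± 1.06) and TNFAIP6, a hyaluronan-binding protein gene (4.74 ± 0.40), were among the increases, and VCAM1, a second leukocyte adhesion molecule, was the decrease (−1.90 ± 0.38). VCAM1 stood at 58.8, 82.0 and 89.2 cpm at D20 and at 34.0, 20.8 and 5.16 at D20+ TGF-β, where ICAM1 had not been called. TNFAIP6 had 16.8, 15.8 and 6.12 cpm in D20+ TGF-β and at most 0.776 at D20, and it rose in D1+ TGF-β vs D1 as well (2.55 ± 0.32). In D1+ TGF-β vs D1, GADD45B, a stress and growth arrest gene, rose (0.84 ± 0.15) and IRF1 fell (−0.72 ± 0.15), and the other 9 of the 11 were not called. Of all genes, 13.4% were called there. In D20+ TGF-β against D1+ TGF-β, 6 of the 11 were higher, with a median log2 fold change of 1.39 over the list and 0.010 over all genes, of which 17.2% were higher, and GADD45B was lower (−0.82 ± 0.15). Without the members CCL2 and ICAM1, 4 of 9 were higher and the median was 0.72. In D20 vs D1, 5 of the 11 were higher and 0 lower, against 18.9% and 17.6% of all genes, among them ICAM1, TNFAIP8 (1.18 ± 0.21) and CSF1 (1.00 ± 0.19). Without the members, 4 of 9 were higher there.

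Of 16 genes of NF-kB subunits, inhibitors and regulators, 14 were tested and TNFAIP3 was the 1 called in D20+ TGF-β vs D20, against 27.5% of all genes. DESeq2 called 2 there and limma-voom 0. By edgeR 8 of the 14 had an unadjusted p under 0.05, a share that was not counted over all genes. In D20+ TGF-β against D1+ TGF-β, 5 were higher, NFKB1, NFKBIA, TNFAIP3, the noncanonical subunit gene RELB (0.83 ± 0.20) and the coactivator gene BCL3 (0.85 ± 0.17). There 0 were lower, and of all genes 17.2% were higher and 17.7% lower. With the members left out, 2 of 10 were higher, near the share of all genes. BCL3 was also the 1 called in D20 vs D1 (0.65 ± 0.16), against 36.4% of all genes. In D1+ TGF-β vs D1, 0 of 14 were called by edgeR, by DESeq2 or by limma-voom, and 2 had an unadjusted p under 0.05. Of all genes, edgeR called 13.4% there, and the share at the unadjusted threshold was not counted. RELB followed the flasks of D20+ TGF-β with 25.9, 19.2 and 13.8 cpm, as did NFKBIZ, an inducible nuclear IκB, with 107, 72.0 and 22.4 cpm, and TNIP1, a partner of A20, with 164, 121 and 93.0 cpm. Replicate 1 was highest and replicate 3 lowest in 9 of the 14, and in 6 of the 10 that were not members, against 18.8% of all genes. CYLD, a deubiquitinase that restrains the pathway, and OTUD7B were called in no comparison.

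Receptors, adaptors and kinases of the pathway were taken as a list. Of 21 tested, 5 were lower and 1 higher in D1+ TGF-β vs D1, against 6.5% of all genes lower and 6.89% higher. In D20+ TGF-β vs D20, 6 were lower and 2 higher, against 14.7% and 12.8% of all genes. IL1R1 was among the decreases at both times, with the TNF receptor gene TNFRSF1A (−0.39 ± 0.09 and −0.69 ± 0.08) and MYD88, the adaptor of interleukin-1 and Toll-like receptors (−0.32 ± 0.08 and −0.37 ± 0.08). TNFRSF1B, the second TNF receptor, fell at D1 (−1.22 ± 0.24) and LTBR, the lymphotoxin receptor, did too (−0.57 ± 0.09). IRAK1 (0.61 ± 0.10) and IRAK2 (0.99 ± 0.24), kinases of the interleukin-1 receptor, rose in D20+ TGF-β vs D20. TLR3, a receptor of double-stranded RNA that only the wider filter kept, fell there (−2.60 ± 0.28) and had risen in D20 vs D1 (2.41 ± 0.27). The receptor's accessory chain IL1RAP stayed between 6.50 and 11.7 cpm, and TLR2, TLR4 and the decoy receptor IL1R2 were under 0.39 cpm in every library.

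Among 7 genes listed as C/EBP, CEBPZ by its symbol only, 5 were tested and 4 rose in D20+ TGF-β vs D20. These were 3 of the 3 that were not members and 1 member, against 12.8% of all genes. Beside CEBPB these were CEBPG (1.58 ± 0.11), CEBPZ (0.36 ± 0.09) and the stress gene DDIT3, also called CHOP (1.93 ± 0.21), and CEBPD was the exception. CEBPG rose at D1 too (0.84 ± 0.11). DDIT3 and CEBPG did not share the order of the NF-kB genes, with 56.2, 48.1 and 74.5 cpm and 41.0, 39.7 and 53.0 cpm in D20+ TGF-β replicates 1, 2 and 3. CEBPA had 5 counts and CEBPE 0 counts in all 12 libraries.

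Of 6 genes around CXCL12, 1 passed the filter. DPP4, the peptidase that inactivates CXCL12, rose in D20+ TGF-β against D1+ TGF-β (1.30 ± 0.22) and in D20 vs D1 (1.11 ± 0.22). ACKR3, a scavenging receptor of CXCL12 kept by the wider filter, had 6.50, 8.65 and 9.0 cpm at D20 and 0.80, 0.719 and 0.0956 at D20+ TGF-β. It fell there at a log2 fold change of −3.79 ± 0.41 (SE, edgeR adjusted p = 6.18e-06) and had risen from D1 to D20 by 3.89 ± 0.41 (adjusted p = 3.96e-06). CXCR4, the signalling receptor, had 5 counts in all, each in D20+ TGF-β replicate 1.

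The levels of the members were also compared per kilobase of annotated exon, to set genes beside each other. At D20 the order was CEBPD at 59.9 ± 6.01 cpm per kb, IL1R1 at 54.2 ± 2.11, CEBPB at 42.4 ± 4.39, ICAM1 at 26.1 ± 3.40, RELA at 12.2 ± 0.455, CCL2 at 10.6 ± 1.48, NFKBIA at 8.15 ± 0.177, NFKB1 at 2.54 ± 0.081, CXCL12 at 1.67 ± 0.245 and TNFAIP3 at 1.61 ± 0.143 (SD, n = 3). CEBPD and IL1R1, RELA and CCL2, and CXCL12 and TNFAIP3 were neighbours within their spread. At D1+ TGF-β CEBPB led with 40.8 ± 1.31 and RELA came next with 12.3 ± 0.633, and CEBPD and IL1R1 were at 8.06 ± 0.984 and 5.81 ± 0.219. The exon lengths were unions over all annotated transcripts, from 1252 bases for CEBPD to 15679 for NFKB1, so long genes are understated.

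For each member tested, the genes of the most similar pattern were sought by Pearson's r of log2 cpm over the 12 libraries, which share 4 conditions. IL1R1 lay closest to TFPI (r = 0.994), GRK5 (0.993) and PCDH18 (0.990). CEBPD was closest to MCC (0.991) and ICAM1 to CRTC1 (0.980), and CCL2 to SMPDL3A (0.951). NFKBIA had SOD2 (0.963), NAMPT (0.956) and WTAP (0.952) as its nearest genes. WTAP overlaps SOD2 on the opposite strand, so these genes may share reads, the use of strand in counting being unknown. TNFAIP3 had ACO1 (0.987), TNIP1 (0.957) and WTAP (0.956), and NFKB1 had TNIP1 (0.963). CEBPB was closest to CNPY3 (0.969) and RELA to PRCC (0.854), the lowest of the 9 first neighbours.

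The cells bore the marks of their label. All 10 fibroblast markers passed the filter, and of the leukocyte markers LYZ, ITGAM, CD3E and TYROBP had 0 counts in all 12 libraries, as had KRT5 of epithelium and CDH5 of endothelium. PTPRC had 7 counts in all. CD68, a lysosomal protein gene of macrophages that other cells express too, stood at 38.1 to 62.6 cpm and fell in D1+ TGF-β vs D1 (−0.49 ± 0.10, edgeR adjusted p = 0.00252). CD14, the co-receptor for lipopolysaccharide, stood at 5.43 to 6.30 cpm at D20 and at most 0.531 elsewhere. Under the wider filter it rose in D20 vs D1 (3.95 ± 0.39, adjusted p = 1.8e-06) and fell in D20+ TGF-β vs D20 (−4.08 ± 0.39, adjusted p = 2.18e-06), as CXCL12 and IL1R1 did, and its part in their changes was not tested. Of the 8 leukocyte, 6 epithelial and 5 endothelial markers, 1, 3 and 1 passed the filter. The summed endothelial list, nearly all of it TEK, was 46.3 to 80.2 cpm at D1, 35.0 to 40.8 at D1+ TGF-β, 223 to 251 at D20 and 78.1 to 152 at D20+ TGF-β, with VWF at or under 1.55 cpm and PECAM1 at or under 0.309. IL1R1 was likewise highest at D20 and lowest at D1+ TGF-β, but its mean was higher at D1 (157 cpm) than at D20+ TGF-β (144 cpm), where the flasks overlapped. Its part in the result was not tested. Library totals were 8674488 to 18286197 counts. The 3 myofibroblast markers were higher in D1+ TGF-β vs D1 (3 of 3), and in D20+ TGF-β vs D20 0 were higher and 1 was lower. D1 replicate 2 stood apart from its flask mates in several members and in IL1B (7.04 cpm against 0.258 and 0.681) and PTGS2, the gene of cyclooxygenase-2 (22.7 cpm against 3.18 and 2.55).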

How the data were processed

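A directional library kit was used per the labels, and each of 12 libraries was sequenced in 4 lanes. After trimming (Trimmomatic) and alignment to hg19 (Rsubread), the authors deposited a table of unnormalised counts, with 25702 genes in rows and a column for each lane, in which 20434 genes had a count. The authors also deposited log2 cpm values made by voom for 9412 genes, used here as an alternative and for gene symbols. The counting program, its annotation and its use of strand are not given in the sources used here.

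Lanes were summed to libraries of 8674488 to 18286197 counts. edgeR 4.0.16 in R 4.3.3 (glmQLFit, glmQLFTest, TMM) was fitted to all 12 libraries with 1 mean per condition, for the 9490 genes that reached 10 cpm in 6 or more libraries. Adjusted p-values are Benjamini-Hochberg values over all genes of a fit, and SEs come from the same fit. Log2 levels had a prior count of 2. CXCL12 and list genes under the filter were tested after filterByExpr. Fits were first tested on simulated counts. With 3 flasks against 3, an exact permutation test cannot give a p below 0.1, so none is quoted. Alternatives included DESeq2 1.42.0 and limma 3.58.1. No 2 libraries of a condition were copies, with a chi-square per degree of freedom of 1.78 to 36.1. Exons and strands are from GENCODE for GRCh37, and promoters from RefSeq.

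The members and lists were chosen with earlier results of these data known. From each list, called genes with the largest log2 fold changes were named. Other list genes, shown for the D20+ TGF-β flasks or for their roles, were chosen after their values were seen.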

Additional observations from a re-analysis of the deposited data

Results flagged for a closer look

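For 8 genes the TGF-β response at D20 differed from that at D1 by edgeR's test of the difference itself (D20 minus D1, on the log2 scale), among the members and the pathway lists. The member was CXCL12, at −2.82 ± 0.48 (adjusted p = 0.0012). TNFRSF1B differed by 1.41 ± 0.33 (adjusted p = 0.00824), with 10.7 cpm in D1+ TGF-β and 24.5 in D1. IRAK1 differed by 0.59 ± 0.14 (adjusted p = 0.00897), with 183 cpm in D20+ TGF-β and 120 in D20. IRAK2 differed by 1.59 ± 0.34 (adjusted p = 0.00521), its D20+ TGF-β flasks standing at 35.7, 21.5 and 13.9 cpm. CXCL8 differed by 7.10 ± 1.61 (adjusted p = 0.00775), with D20+ TGF-β replicate 3 at 3.92 cpm and its flask mates at 198 and 71.0. IL1B differed by 7.49 ± 1.74 (adjusted p = 0.00892), with D1 replicate 2 at 7.04 cpm and the other D1 flasks at 0.258 and 0.681. GADD45B differed by −1.03 ± 0.21 (adjusted p = 0.00373), with 17 cpm in D1 and 30.4 in D1+ TGF-β. CEBPG differed by 0.73 ± 0.15 (adjusted p = 0.00377), with 21.0 and 37.8 cpm at D1 without and with TGF-β and 14.9 and 44.6 at D20. CXCL12, CXCL8 and IL1B were tested under the wider filter, where 8.04% of all genes were called. The other 5 were called in the main fit, as were 10.4% of all genes. They were 3 of 20 receptors, adaptors and kinases, 1 of 9 inducible genes and 1 of 3 genes listed as C/EBP, members left out. For NF-kB subunits and inhibitors it was 0 of 10, and around CXCL12 0 of 1. The number called in the main fit was near the background.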

How the results depend on the processing

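Over 24 alternatives (23 for the difference of the responses, 14 for CXCL12), the members' log2 fold changes kept direction and side of the threshold in 1022 cases, lost a call in 65, gained one in 29 and changed sign in 25. CEBPB and CEBPD in D20+ TGF-β against D1+ TGF-β and ICAM1 in both time comparisons were called under every alternative run. So was CXCL12, over its 14 alternatives, in D20+ TGF-β vs D20, in D20 vs D1 and in the difference of the responses. Leave-one-out fits under the wider filter were added for CXCL12 after seeing the data.

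Members called in D1+ TGF-β vs D1, without CXCL12 where the filter left it out, numbered 2, and 1 by limma-voom. In D20+ TGF-β vs D20 they numbered 3, then 5 with lanes as samples, 5 with no gene filter, 5 at an adjusted p under 0.05 and 1 with only the compared libraries. For TGF-β-treated cells over time they numbered 8, and 5 with only the compared libraries. The difference of the responses was called for 0 members, and for 1 by DESeq2, 1 with no composition factor, 1 under filterByExpr, 1 at an adjusted p under 0.05, 4 with lanes as samples and 4 with no gene filter. Lanes of a library are not separate cultures. Leaving out 1 library gave 0 to 2, 0 to 5, 3 to 8, 1 to 4 (D20 vs D1) and 0 to 5 members in these comparisons, with 0 in D20+ TGF-β vs D20 without D20 replicate 1 or D20+ TGF-β replicate 1, 3 over time with TGF-β without D1+ TGF-β replicate 2, and 1 in D20 vs D1 without D1 replicate 1 or 3.

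Pathway list genes called in D1+ TGF-β vs D1 numbered 8, and 21 with lanes as samples, 14 with no gene filter and 15 at an adjusted p under 0.05. In D20+ TGF-β vs D20 there were 14, and 26 with lanes as samples, 33 with no gene filter and 25 under filterByExpr. Over time with TGF-β there were 14, and by the same alternatives 28, 33 and 24. In D20 vs D1 there were 12, and 23 with lanes as samples and 21 with no gene filter. For the difference of the responses there were 5, and 3 by limma-voom, 21 with lanes as samples, 13 with no gene filter and 10 at an adjusted p under 0.05. Leaving out 1 library gave 3 to 15, 7 to 17, 9 to 17, 10 to 14 and 0 to 11. Fits with no gene filter or with filterByExpr test more genes, and the cause of the other moves was not tested.

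With the replicate number as a replicate block, 2, 3, 8, 3 and 0 members were called, as without it, and 7, 9, 13, 12 and 3 list genes. Same-numbered flasks had correlations of −0.22 to 0.026, so that the numbers did not pair them.

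Sign changes were all among uncalled values. In D1+ TGF-β vs D1 these were TNFAIP3 (0.031 after thinning to the smallest library, −0.11 to 0.063 leaving out 1 library), NFKB1 (−0.0044 with no composition factor) and RELA (−0.12 to 0.021). In D20+ TGF-β vs D20 these were CCL2 (−0.0047 to 1.31), CEBPD (−0.44 to 0.14), ICAM1 (−0.069 to 0.48) and RELA (0.0063 with no composition factor). In D20 vs D1 these were TNFAIP3 (−0.14 to 0.054) and RELA (−0.14 to 0.0029). In the difference of the responses these were IL1R1 (−0.089 to 0.85), RELA (−0.060 to 0.078) and ICAM1 (−0.30 to 0.25, 0.091 with no composition factor, 0.014 with no gene filter, 0.022 thinned). CXCL12, at 16 to 184 counts a library, is the member with the fewest counts.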
